A study of Mus musculus with 8 samples.

Results

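The genes described are the xenobiotic receptors *Nr1i2* (PXR, the pregnane X receptor) and *Nr1i3* (CAR, the constitutive androstane receptor) with *Cyp2a4*, *Cyp2a5*, *Cyp2b9*, *Cyp2b10*, *Cyp2b13*, *Cyp3a11*, *Cyp3a13* and *Cyp3a25*, cytochrome P450 genes of the Cyp2a, Cyp2b and Cyp3a families. They were taken by symbol, and all 10 were found among the 55416 gene identifiers of the table. RNA was sequenced from 8 mouse livers, 4 labelled HKO and 4 labelled FLOX. HKO animals were Alb-cre+, so that Cre recombinase, driven by the albumin promoter of hepatocytes, deleted a loxP-flanked *Smpd3* (neutral sphingomyelinase 2, which makes ceramide from sphingomyelin). FLOX animals were Alb-cre-. Both groups ate the HFMCD diet for 9 weeks, which was used to model steatohepatitis, and no group on another diet was analysed here. Only HKO livers carried Cre, so that effects of Cre itself and of *Smpd3* deletion cannot be told apart. Age, sex and time of collection are not in the labels. Nor do these state whether the libraries come from different animals, and p-values therefore measure the spread between libraries, which may be technical.

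CAR and PXR are nuclear receptors of the hepatocyte that pair with RXR, bind DNA hexamers of the AGGTCA type and switch on genes for the clearance of drugs, bile acids and steroids. *Cyp2b10* is the usual reporter of CAR and *Cyp3a11* that of PXR in mouse liver. Several genes of these families are also set by growth hormone pulses and differ between the sexes, with *Cyp2a4*, *Cyp2b9* and *Cyp2b13* higher in females. *Cyp2a5* is in addition known as a target of the circadian PAR bZIP factors and of NRF2.

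The Cyp2a and Cyp2b genes form a cluster, in the order *Cyp2b10*, *Cyp2b13*, *Cyp2b9*, *Cyp2a4* and *Cyp2a5* on chromosome 7, and the Cyp3a genes lie on chromosome 5, per RefSeq. The order given counts the members alone. The 250 bases upstream of the start site are shown for 2 pairs of genes that are close copies but differed widely in level. These windows are from RefSeq, GRCm38.p6, read 5′ to 3′ on the strand of the gene. Capitals mark the bases that differ within a pair.

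Cyp2a4 (chr7:26306942-26307191, plus strand): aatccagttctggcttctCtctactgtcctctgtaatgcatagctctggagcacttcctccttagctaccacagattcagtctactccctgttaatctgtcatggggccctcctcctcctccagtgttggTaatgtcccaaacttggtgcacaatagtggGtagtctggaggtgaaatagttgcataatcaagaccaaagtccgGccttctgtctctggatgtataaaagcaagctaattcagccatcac

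Cyp2a5 (chr7:26835089-26835338, plus strand): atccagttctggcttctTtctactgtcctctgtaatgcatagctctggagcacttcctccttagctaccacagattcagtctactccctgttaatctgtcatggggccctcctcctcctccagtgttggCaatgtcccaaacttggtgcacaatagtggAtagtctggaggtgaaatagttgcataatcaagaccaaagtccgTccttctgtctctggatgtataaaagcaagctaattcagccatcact

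Cyp2b9 (chr7:26173159-26173408, plus strand): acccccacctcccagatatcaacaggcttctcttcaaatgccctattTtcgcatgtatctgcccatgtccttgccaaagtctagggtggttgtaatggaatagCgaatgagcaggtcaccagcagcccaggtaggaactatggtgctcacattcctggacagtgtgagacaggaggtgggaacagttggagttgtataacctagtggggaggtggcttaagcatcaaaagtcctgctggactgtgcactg

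Cyp2b13 (chr7:26061245-26061494, plus strand): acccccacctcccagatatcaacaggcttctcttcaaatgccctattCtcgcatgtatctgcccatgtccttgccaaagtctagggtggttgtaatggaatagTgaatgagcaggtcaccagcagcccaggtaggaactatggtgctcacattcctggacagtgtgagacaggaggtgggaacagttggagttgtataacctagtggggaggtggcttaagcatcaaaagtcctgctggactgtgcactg

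The *Cyp2a4* and *Cyp2a5* windows, which are offset by 1 base, differed at 4 of 249 aligned bases, and the *Cyp2b9* and *Cyp2b13* windows at 2 of 250. *Cyp2b10*, the third Cyp2b gene, matched *Cyp2b9* at 75.8% of 240 aligned bases. It is printed with *Cyp3a11* and *Cyp3a25* because the matches discussed next lie in them. Capitals in *Cyp2b10* mark TTGCATAA, a sequence of the kind bound by C/EBP and PAR bZIP factors, and in the Cyp3a windows they mark AGGTCA or its reverse complement TGACCT.

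Cyp2b10 (chr7:25897408-25897657, plus strand): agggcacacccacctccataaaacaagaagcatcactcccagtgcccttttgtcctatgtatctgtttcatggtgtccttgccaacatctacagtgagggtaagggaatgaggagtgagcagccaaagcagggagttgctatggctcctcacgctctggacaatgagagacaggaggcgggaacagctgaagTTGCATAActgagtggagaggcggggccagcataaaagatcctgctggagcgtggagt

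Cyp3a11 (chr5:145879855-145880104, minus strand): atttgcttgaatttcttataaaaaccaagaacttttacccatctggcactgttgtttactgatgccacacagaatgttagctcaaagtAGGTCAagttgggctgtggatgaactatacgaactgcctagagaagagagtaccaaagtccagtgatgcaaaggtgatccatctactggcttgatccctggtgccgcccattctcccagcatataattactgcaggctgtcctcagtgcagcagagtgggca

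Cyp3a25 (chr5:146009619-146009868, minus strand): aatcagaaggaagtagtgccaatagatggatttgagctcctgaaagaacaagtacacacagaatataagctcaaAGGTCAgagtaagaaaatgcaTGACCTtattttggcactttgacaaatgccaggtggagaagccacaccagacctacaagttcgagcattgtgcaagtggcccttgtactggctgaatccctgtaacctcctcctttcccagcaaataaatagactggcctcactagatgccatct

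AGGTCA was found on either strand in 4 of the 10 windows, those of *Cyp2b9*, *Cyp2b13*, *Cyp3a11* and *Cyp3a25*, and in 13.8% of 27025 promoter windows of the same length. TTGCATAA was found in 3, those of *Cyp2a4*, *Cyp2a5* and *Cyp2b10*, and in 0.744% of all windows. The D-box TTATGTAA was found in 0 of the 10 and in 0.862% of all. In *Cyp2a4* and *Cyp2a5* the TTGCATAA match is identical and starts 70 and 71 bases before the start site, and none of the 4 differing bases falls in it. The windows of *Cyp2a4* and *Cyp2a5*, and those of *Cyp2b9* and *Cyp2b13*, are near copies, so that their matches are not independent. The motifs were also chosen after the promoters were seen, and the shares of all windows are given for scale only. These matches describe the letters of the windows and are not evidence that a factor binds there.

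Levels in liver spanned more than 4 orders of magnitude on the TPM scale, which is per length. *Cyp3a11*, the main Cyp3a enzyme of mouse liver, was the most abundant at 733 to 1191 TPM over the 8 libraries. *Cyp2a5*, the coumarin hydroxylase, followed at 153 to 292 TPM. *Cyp3a25* at 70.8 to 97.7 TPM and *Nr1i3* at 55.8 to 89.9 TPM overlapped in range, as did the next 3, *Cyp3a13* at 27.9 to 39.6 TPM, *Cyp2b9* at 17.1 to 64.1 TPM and *Nr1i2* at 24.8 to 32.6 TPM. *Cyp2a4*, the steroid 15-alpha-hydroxylase, stood at 4.31 to 16.0 TPM. *Cyp2b13* ranged from 0.04 to 2.95 TPM and *Cyp2b10* from 0 to 0.09 TPM, so that this usual reporter of CAR was at or near 0 in every library.

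**Figure D1:**
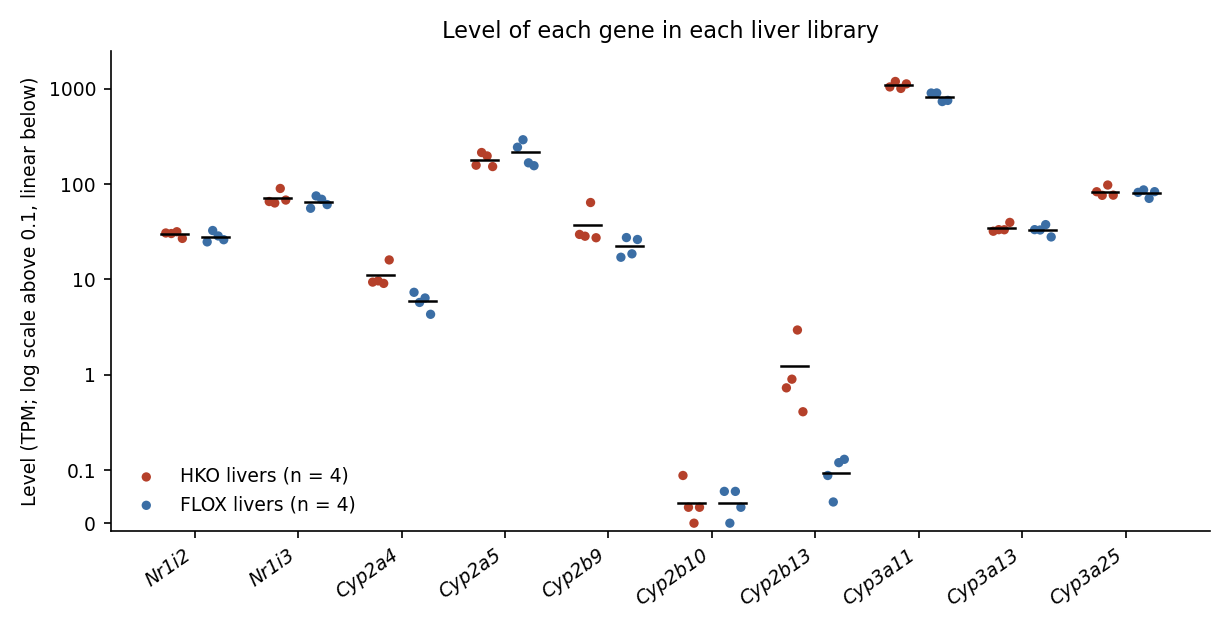
Level of each gene in the 4 HKO livers (red) and the 4 FLOX livers (blue), in TPM on an axis that is logarithmic above 0.1 and linear below. Each point is 1 library in the order of its number, and the black bars are group means. *Cyp2b10* lies at 0.09 TPM or less in all 8, while *Cyp2a4*, *Cyp2b13* and *Cyp3a11* are separated between the genotypes.

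Before the comparison, the libraries were checked. *Smpd3* was at 1.17, 3.03, 1.27 and 2.06 TPM in HKO livers 1 to 4, against 8.69, 10.7, 12.5 and 6.38 TPM in FLOX livers 1 to 4, and the groups did not overlap. FLOX liver 4 stood apart from the others, with the fewest genes reaching 1 TPM, 12115, where the other 7 had 12474 to 12890, and with 33.8% of its TPM in its 20 most abundant genes against 28.6% to 31.4%. The Y-linked genes *Kdm5d*, *Uty*, *Ddx3y* and *Eif2s3y* were present in all 8 libraries, at 1.93 to 27.0 TPM, and *Xist* was at most 0.11 TPM. This is the pattern of male tissue, in both groups. Hepatocyte markers were abundant, with 14 genes summing to between 94228 and 108351 TPM in HKO livers and between 103608 and 121079 TPM in FLOX livers. Of these 14, 11 had a lower mean in HKO livers, where 64.6% of all genes tested had a higher mean. The groups did not overlap, with HKO lower, in 3 of the 14, against 1.46% of all genes tested. Of the 14, 0 passed the test used below.

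No member passed the threshold between the genotypes. Of the 10, 8 reached 1 TPM in at least 4 libraries and were tested in limma on log2(TPM + 1), and 0 of these 8 had a Benjamini-Hochberg adjusted p under 0.05, where 0.102% of the 12710 genes tested did (0.0472% higher and 0.0551% lower in HKO livers). At an unadjusted p under 0.05 there were 3 of 8, against 8.02% of all genes. Of the 8, 7 had a higher mean in HKO livers, against 64.6% of all genes, and their median log2 difference was 0.11 against 0.05 for all genes. The groups did not overlap, with HKO higher, in 2 of the 8, against 3.29% of all genes, and in 1 of the 2 members below the limit for testing. They did not overlap, with HKO lower, in 0 of the 8, against 1.46% of all genes, and 4.74% of all genes were without overlap in either direction.

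The receptors themselves differed by less than their spread. *Nr1i2* (ENSMUSG00000022809) was at 30.7, 30.3, 31.6 and 26.9 TPM in HKO livers 1 to 4, against 24.8, 32.6, 28.6 and 26.1 TPM in FLOX livers 1 to 4. The groups overlapped, and FLOX liver 2 held the highest value. Its log2 difference, HKO minus FLOX, was 0.10 ± 0.11 (SE), with a 95% interval from -0.14 to 0.34 and an adjusted p of 0.912 in limma. *Nr1i3* (ENSMUSG00000005677) was at 65.6, 63.4, 89.9 and 68.0 TPM in HKO livers 1 to 4, against 55.8, 75.1, 69.3 and 61.0 TPM in FLOX livers 1 to 4. HKO liver 3 was highest and the other HKO livers lay within the FLOX range. The difference was 0.13 ± 0.13 (SE), with an interval from -0.16 to 0.42 and an adjusted p of 0.899 in limma, and it was 0.02 without HKO liver 3. The ratio of *Nr1i3* to *Nr1i2* was 2.40 ± 0.35 in HKO livers and 2.33 ± 0.07 in FLOX livers (SD, n = 4 each).

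Among the Cyp3a genes, *Cyp3a11* (ENSMUSG00000056035) had the smallest p of all members. It was at 1043, 1191, 1007 and 1124 TPM in HKO livers 1 to 4, against 901, 903, 733 and 754 TPM in FLOX livers 1 to 4. Every HKO liver was above every FLOX liver. The means were 1091 ± 82.3 TPM in HKO livers and 823 ± 91.7 TPM in FLOX livers (SD, n = 4 each), a ratio of 1.33. The log2 difference was 0.41 ± 0.09 (SE), with an adjusted p of 0.186 in limma. In a 2-sided exact permutation test of this gene p was 0.0286, the smallest that 70 assignments can give, before any adjustment. Any gene whose groups do not overlap gets this value, so that it only repeats the separation. The same permutation test gave 0.0571 for *Cyp2b9*. It gave 0.343 to 0.686 for *Nr1i2*, *Nr1i3*, *Cyp2a5*, *Cyp3a13* and *Cyp3a25*. With each library left out the log2 difference was between 0.36 and 0.46 and the adjusted p between 0.130 and 0.387. Its sequence is not fully unique, since 14.8% of the 50-base words of its transcript also occur in other genes, and 6.32% of the words occur in *Cyp3a41a*, the gene that shares the most at this length. *Cyp3a41a* was at 0.26 TPM or less. At 100 bases 0.312% were shared.

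*Cyp3a13* and *Cyp3a25*, the other Cyp3a members, showed no difference beyond their spread. *Cyp3a13* (ENSMUSG00000029727) was at 32.0, 33.3, 33.2 and 39.6 TPM in HKO livers 1 to 4, against 33.3, 33.0, 37.6 and 27.9 TPM in FLOX livers 1 to 4. *Cyp3a25* (ENSMUSG00000029630) was at 83.1, 76.2, 97.7 and 76.5 TPM in HKO livers 1 to 4, against 81.8, 86.9, 70.8 and 83.3 TPM in FLOX livers 1 to 4. The groups overlapped for both. Of the 50-base words of *Cyp3a25*, 26.8% occur in other genes and 25.0% in *Cyp3a59*, against 0% in other genes for *Cyp3a13*. At 100 bases 6.05% of the *Cyp3a25* words were shared. The 95% interval of the log2 difference ran from -0.18 to 0.32 for *Cyp3a13* and from -0.19 to 0.27 for *Cyp3a25*, and the sign of either turned with the scaling. *Cyp3a11* made up 71.4% to 78.2% of the summed TPM of the 8 Cyp members in HKO livers and 67.0% to 71.7% in FLOX livers.

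**Figure D2:**
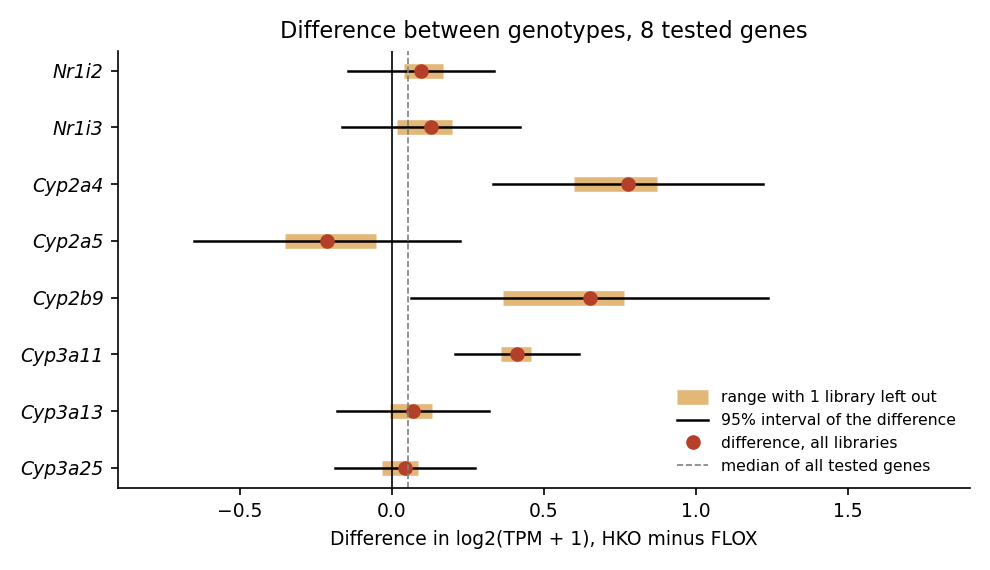
Difference in log2(TPM + 1) between genotypes, HKO minus FLOX, for the 8 tested genes (red points), with the 95% interval from limma (black lines, not adjusted for the number of genes), the range over the 8 fits that leave out 1 library (tan bars) and the median of all tested genes (dashed line). The intervals of *Cyp2a4*, *Cyp2b9* and *Cyp3a11* lie above 0, and no gene passed after adjustment over all 12710 genes.

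The 2 Cyp2a genes had differences of opposite sign, and neither passed. *Cyp2a4* (ENSMUSG00000074254) was at 9.38, 9.66, 9.09 and 16.0 TPM in HKO livers 1 to 4, against 7.33, 5.74, 6.39 and 4.31 TPM in FLOX livers 1 to 4. Every HKO liver was above every FLOX liver, and HKO liver 4 was well above the rest. The means were 11.0 ± 3.33 TPM in HKO livers and 5.94 ± 1.27 TPM in FLOX livers (SD, n = 4 each), a ratio of 1.86. The log2 difference was 0.78 ± 0.20 (SE), with an adjusted p of 0.230 in limma. The exact permutation p, 2-sided and not adjusted, was 0.0286, as for any gene without overlap. Without HKO liver 4 the difference was 0.60. *Cyp2a5* (ENSMUSG00000005547) was at 158, 214, 197 and 153 TPM in HKO livers 1 to 4, against 243, 292, 167 and 156 TPM in FLOX livers 1 to 4. FLOX livers 1 and 2 were the highest, and the other 2 FLOX livers lay within the HKO range. Its log2 difference was -0.21 ± 0.20 (SE), with an adjusted p of 0.888 in limma and an interval from -0.65 to 0.22.

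Since *Cyp2a4* and *Cyp2a5* share a near-identical promoter window, their balance within each library was also described. *Cyp2a4* made up 5.62%, 4.31%, 4.41% and 9.50% of the summed TPM of both genes in HKO livers 1 to 4, against 2.92%, 1.93%, 3.69% and 2.69% in FLOX livers 1 to 4. All HKO livers were above all FLOX livers, as was already so for the *Cyp2a4* levels, and the share is not a separate result. The sum of both genes overlapped between the groups, at 167 to 224 TPM in HKO livers and 160 to 297 TPM in FLOX livers. Their coding sequences matched at 1462 of 1485 bases. Of the 50-base words of the *Cyp2a4* transcript, 36.1% occur in *Cyp2a5*, and of its 100-base words 11.2% do, so that the division of reads between them is uncertain.

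The Cyp2b genes ran from moderately expressed to near 0. *Cyp2b9* (ENSMUSG00000040660) was at 29.7, 28.4, 64.1 and 27.4 TPM in HKO livers 1 to 4, against 17.1, 27.5, 18.6 and 26.2 TPM in FLOX livers 1 to 4. HKO liver 3 was at more than 2 times any other library, and HKO liver 4 lay just below FLOX liver 2. The log2 difference was 0.65 ± 0.26 (SE), with an adjusted p of 0.563 in limma. Without HKO liver 3 it was 0.36, with an adjusted p of 0.858. *Cyp2b13* (ENSMUSG00000040583) was at 0.73, 0.90, 2.95 and 0.41 TPM in HKO livers 1 to 4, against 0.09, 0.04, 0.12 and 0.13 TPM in FLOX livers 1 to 4. Every HKO liver was above every FLOX liver at these low levels. The ratio of mean TPM was 13.1, and 7.16 without HKO liver 3. It was too low for the main test. With no filter on low values its log2 difference was 0.92 ± 0.29 (SE) on the log2(TPM + 1) scale, which understates it, and the adjusted p in limma was 0.662. The exact permutation p, 2-sided and not adjusted, was 0.0286, as for any gene without overlap. *Cyp2b10* (ENSMUSG00000030483) was at 0.09, 0.03, 0 and 0.03 TPM in HKO livers 1 to 4, against 0.06, 0, 0.06 and 0.03 TPM in FLOX livers 1 to 4. The group means were equal at 0.0375 TPM, and no fold is given at this level.

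*Cyp2b13* made up 2.40%, 3.07%, 4.40% and 1.48% of the summed TPM of *Cyp2b9* and *Cyp2b13* in HKO livers 1 to 4, against 0.524%, 0.145%, 0.642% and 0.493% in FLOX livers 1 to 4. The groups did not overlap, as was already so for the *Cyp2b13* levels. The coding sequences of these 2 genes matched at 92.7% of bases. Of the 50-base words of *Cyp2b13*, 13.8% occur in the predicted gene *Gm45225*, more than in any other gene. The size of the low *Cyp2b13* values is therefore uncertain, and the depth behind them is unknown.

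**Figure D3:**
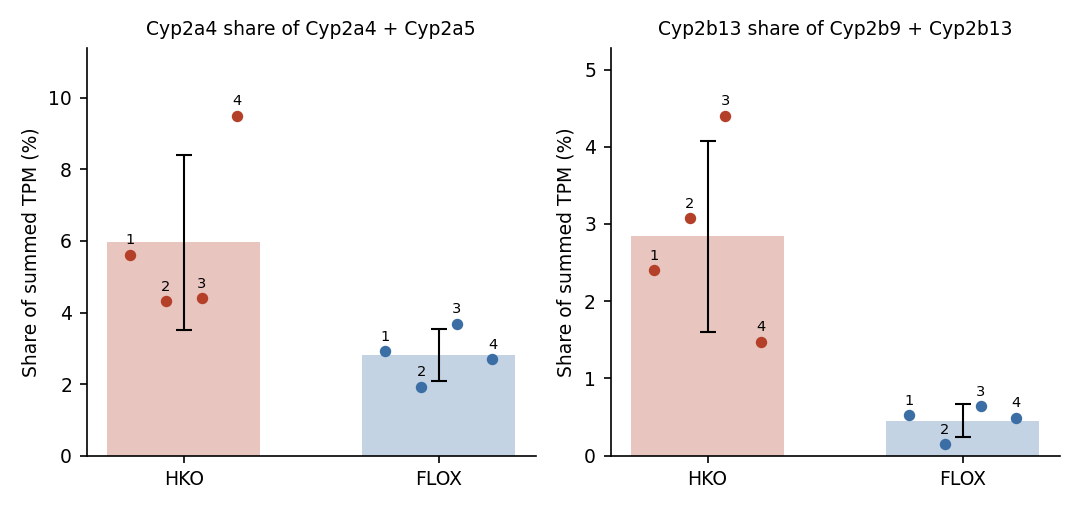
Share of *Cyp2a4* in the summed TPM of *Cyp2a4* and *Cyp2a5* (left) and of *Cyp2b13* in that of *Cyp2b9* and *Cyp2b13* (right), in percent. Bars are means of 4 libraries, error bars are the SD, and each point is a library with its number. Each HKO liver is above each FLOX liver in both panels, from 4.31% against at most 3.69% on the left and from 1.48% against at most 0.642% on the right. Both panels repeat a separation already seen in the levels of *Cyp2a4* and *Cyp2b13*.

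None of the other genes of these families passed the test. Of 11 listed (*Cyp2a12*, *Cyp2a22*, *Cyp2g1* and further Cyp2b and Cyp3a genes), 5 were tested and 0 passed, 2 with a higher and 3 with a lower mean in HKO livers. *Cyp2a12*, a steroid hydroxylase, was at 341 ± 15.5 TPM in HKO livers and 356 ± 11.2 TPM in FLOX livers (SD, n = 4 each). *Cyp2a22* was at 8.41 ± 2.24 TPM in HKO livers and 5.89 ± 2.81 TPM in FLOX livers, *Cyp2g1* at 0.79 ± 0.52 and 1.01 ± 0.45 TPM, and *Cyp3a59* at 4.12 ± 0.74 and 4.49 ± 0.40 TPM, in the same order. The genes *Cyp2b19*, *Cyp2b23*, *Cyp3a16* and *Cyp3a41b* were listed at 0 in all 8 libraries.

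Other genes known to respond to CAR or PXR were read in the same way. Of 28 tested, 0 passed, 21 had a higher and 7 a lower mean in HKO livers, where 64.6% of all genes had a higher mean, and their median log2 difference was 0.13 against 0.05 for all genes. At an unadjusted p under 0.05 in limma there were 9 of the 28, in either direction, against 8.02% of all genes. The groups did not overlap, with HKO higher, in 4 of the 28, namely *Cyp2c29*, *Cyp2c55*, *Gstm1* and *Gstm3*, against 3.29% of all genes. *Cyp2c29*, an epoxygenase and CAR target, was at 40.2, 32.8, 62.0 and 42.9 TPM in HKO livers 1 to 4, against 18.8, 25.0, 15.7 and 18.9 TPM in FLOX livers 1 to 4. Its log2 difference was 1.12 ± 0.19 (SE), the largest positive one among those tested, with an adjusted p of 0.0802 in limma and from 0.0527 to 0.284 in the 18 alternatives. As for *Cyp2b9*, HKO liver 3 held the highest value, but the HKO livers without it were also above every FLOX liver. The glutathione transferase gene *Gstm3* was at 491 ± 54.0 TPM in HKO livers and 329 ± 60.7 TPM in FLOX livers (SD, n = 4 each). The glucuronosyltransferase genes *Ugt1a9* and *Ugt2b34* were at 43.7 ± 8.27 and 172 ± 21.3 TPM in HKO livers, and at 26.2 ± 8.56 and 134 ± 15.2 TPM in FLOX livers. Copies within these families may share reads, which was not measured, so that single members are uncertain. *Alas1*, which starts haem synthesis, went the other way, at 604 ± 168 TPM in HKO livers and 932 ± 221 TPM in FLOX livers (adjusted p = 0.396 in limma). *Sult1e1*, the oestrogen sulfotransferase, had the most negative difference of the list, named after its values were seen, at 2.11, 4.29, 4.69 and 4.02 TPM in HKO livers 1 to 4, against 4.35, 23.1, 4.91 and 14.2 TPM in FLOX livers 1 to 4. FLOX livers 2 and 4 were high and the groups overlapped (adjusted p = 0.520).

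Genes that supply P450 enzymes with electrons and haem gave 0 of 12 past the threshold, 7 with a higher and 5 with a lower mean in HKO livers. *Por*, the reductase that all microsomal P450 enzymes use, was at 91.5 ± 24.7 TPM in HKO livers and 134 ± 54.0 TPM in FLOX livers (SD, n = 4 each). The haem synthesis genes *Cpox* and *Ppox* were at 51.7 ± 7.51 and 12.6 ± 4.47 TPM in HKO livers, and at 60.2 ± 7.12 and 9.55 ± 1.19 TPM in FLOX livers. The partners and coregulators of the receptors gave 0 of 22, 16 with a higher and 6 with a lower mean. *Nr0b2*, the corepressor SHP, was at 52.7, 77.6, 80.1 and 73.6 TPM in HKO livers 1 to 4, against 48.8, 32.1, 30.6 and 51.1 TPM in FLOX livers 1 to 4, and the groups did not overlap (log2 difference 0.81 ± 0.19 SE, adjusted p = 0.206 in limma). *Egfr*, the growth factor receptor whose signalling holds CAR inactive, was at 37.1 ± 11.5 TPM in HKO livers and 64.2 ± 16.5 TPM in FLOX livers (adjusted p = 0.283). The RXR gene *Rxrg* was at 5.53 ± 0.80 TPM in HKO livers and 3.81 ± 1.15 TPM in FLOX livers, and *Foxa2*, a liver pioneer factor, at 19.9 ± 1.14 and 16.7 ± 2.31 TPM, in the same order.

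**Figure D4:**
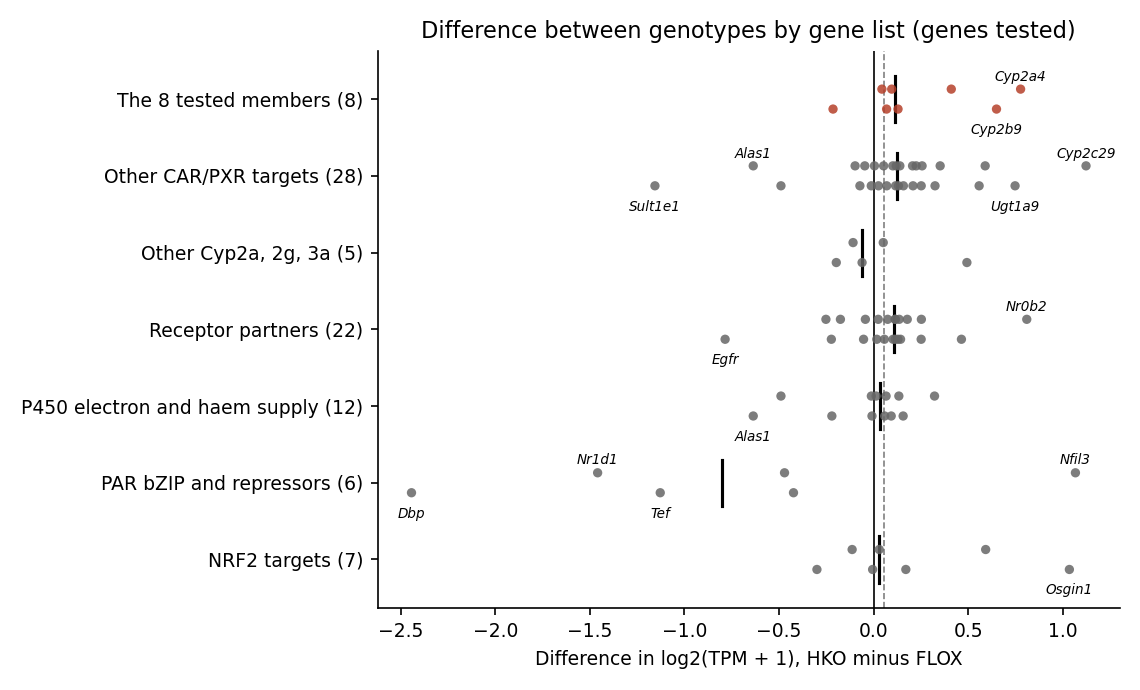
Difference in log2(TPM + 1), HKO minus FLOX, of each tested gene (points) in the 8 tested members and 6 lists of related genes, with the number of genes in brackets, the list median (black bars) and the median of all tested genes (dashed line). *Alas1* and *Por* are in 2 lists, and names are given beyond 0.6 in either direction. Of the genes drawn, *Osgin1* alone passed the threshold.

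Genes of 2 upstream systems known for the Cyp2a genes were set beside them. Of 6 genes of the PAR bZIP factors and related repressors, 0 passed. There were 1 with a higher and 5 with a lower mean in HKO livers, where 64.6% of all genes had a higher mean. At an unadjusted p under 0.05 in limma there were 5 of the 6, in either direction, against 8.02% of all genes. *Dbp*, a PAR bZIP activator, was at 2.67, 3.06, 3.27 and 1.68 TPM in HKO livers 1 to 4, against 18.6, 35.4, 5.43 and 31.4 TPM in FLOX livers 1 to 4. The groups did not overlap, and FLOX liver 3 was closest to the HKO livers (log2 difference -2.44 ± 0.46 SE, adjusted p = 0.108 in limma). *Tef*, another PAR bZIP gene, was at 8.32 ± 3.92 TPM in HKO livers and 19.2 ± 8.06 TPM in FLOX livers (SD, n = 4 each), and *Nr1d1*, which encodes REV-ERB alpha, at 20.2 ± 14.0 and 49.3 ± 13.9 TPM, in the same order. *Nfil3*, a repressor at the same sites, was at 26.8 ± 6.81 TPM in HKO livers and 12.3 ± 3.29 TPM in FLOX livers, without overlap (adjusted p = 0.104). The part of these factors in the Cyp2a values was not tested, and the time of collection is not in the labels.

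Of 7 tested NRF2 targets, 1 passed. *Osgin1*, an oxidative stress response gene, rose to 368 ± 72.2 TPM in HKO livers, against 177 ± 16.4 TPM in FLOX livers (SD, n = 4 each; log2 difference 1.03 ± 0.13 SE, adjusted p = 0.0300 in limma). It did not pass without HKO liver 2 (adjusted p = 0.0978), HKO liver 3 (0.0622), FLOX liver 1 (0.0874), FLOX liver 2 (0.0505) or FLOX liver 4 (0.0830), nor with no filter on low values (0.167). *Gclc*, the catalytic subunit of glutathione synthesis, was at 152 ± 15.9 TPM in HKO livers and 101 ± 14.8 TPM in FLOX livers, without overlap (adjusted p = 0.134). *Hmox1* and *Txnrd1* were at 94.2 ± 20.7 and 90.5 ± 17.0 TPM in HKO livers, and at 117 ± 27.2 and 80.0 ± 11.9 TPM in FLOX livers.

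The sex-biased genes were examined because *Cyp2a4*, *Cyp2b9* and *Cyp2b13* are among those higher in females. Of 5 tested female-biased genes, 5 had a higher mean in HKO livers, where 64.6% of all genes did, and 0 passed. Their median log2 difference was 0.33. The 5 include 2 members of the set, *Cyp2a4* and *Cyp2b9*, and only these 2 had an unadjusted p under 0.05 in limma. Of 17 tested male-biased genes, 15 had a lower mean in HKO livers, where 64.6% of all genes had a higher mean. Of the 17, 0 passed, and their median log2 difference was -0.32. *Cyp2d9*, a male-biased steroid hydroxylase, was at 245 ± 26.7 TPM in HKO livers and 353 ± 12.5 TPM in FLOX livers (SD, n = 4 each), without overlap (log2 difference -0.53 ± 0.09 SE, adjusted p = 0.0730 in limma). The urinary protein genes *Mup7* and *Mup12* were at 240 ± 107 and 26.5 ± 5.41 TPM in HKO livers, and at 794 ± 462 and 64.2 ± 32.2 TPM in FLOX livers. As close copies *Mup7* and *Mup12* may share reads, which was not measured. *Elovl3*, a male-biased elongase, went the other way, at 18.4 ± 3.25 TPM in HKO livers and 13.9 ± 2.20 TPM in FLOX livers.

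Single libraries differed in how often they were the extreme of the 8. Of the 13 female-biased genes above 0 TPM in any library, HKO livers 2 and 3 were each the highest for 4. HKO livers 1 and 4 were each the highest for 2 and FLOX liver 3 for 1. Several of these genes, such as *Cyp3a41a*, were below 1 TPM in every library, so that these counts rest partly on values near 0. Of the 18 male-biased genes, HKO liver 3 was the lowest for 8, FLOX liver 2 for 3 and each other library for at most 2, while FLOX liver 1 was the highest for 7 and FLOX liver 4 for 5. Among the members, HKO liver 3 was the highest for *Cyp2b9* and *Cyp2b13*, which are female-biased, and for *Nr1i3* and *Cyp3a25*, which are in neither list. Its Y-linked genes were within the range of the other HKO livers.

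**Figure D5:**
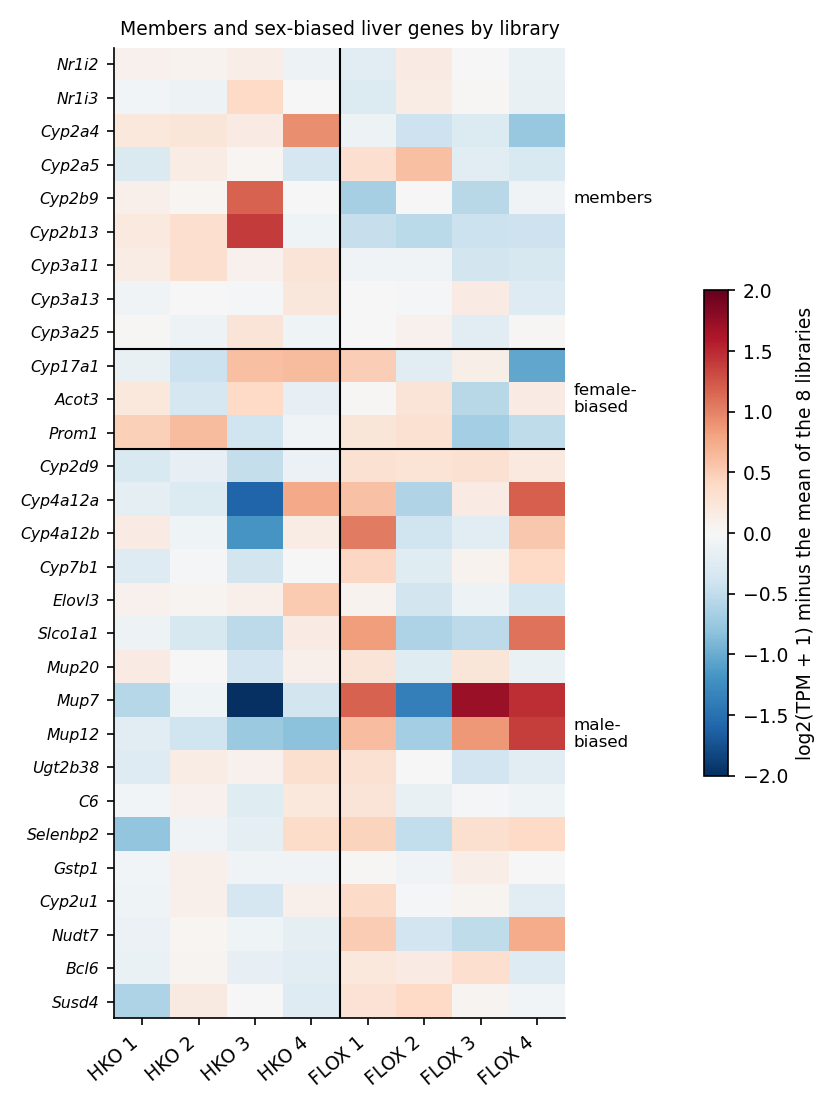
Level of 9 members (*Cyp2b10* left out), 3 further female-biased and 17 male-biased liver genes in each library, as log2(TPM + 1) minus the mean of the 8 libraries for that gene. Columns are HKO livers 1 to 4 and FLOX livers 1 to 4, red is higher, blue is lower, and colours end at 2 in either direction. HKO liver 3 is red for *Cyp2b9* and *Cyp2b13* and blue for *Cyp4a12a* and *Mup7*.

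Markers of other liver cells were compared as sums of TPM. The 12 endothelial markers summed to 113, 143, 143 and 148 TPM in HKO livers 1 to 4, against 190, 204, 178 and 87.6 TPM in FLOX livers 1 to 4. FLOX livers 1 to 3 were above every HKO liver and FLOX liver 4, which stood apart above, was below them all. Of the 12 markers, 11 had a lower mean in HKO livers, with a median log2 difference of -0.29. For scale in this and the counts of direction below, 64.6% of all genes had a higher mean in HKO livers. The 16 Kupffer and macrophage markers summed to between 1547 and 2275 TPM in HKO livers and between 1191 and 2114 TPM in FLOX livers. Of the 15 tested, 11 had a higher and 4 a lower mean in HKO livers. The groups did not overlap, with HKO lower, in 1 of the 15, against 1.46% of all genes. This was *Marco* (log2 difference -0.84 ± 0.13 SE, adjusted p = 0.0609 in limma). *Timd4*, below the limit for testing, was at 0.30 to 0.37 TPM in HKO livers and 0.51 to 0.89 TPM in FLOX livers. The 12 stellate cell markers summed to between 639 and 852 TPM in HKO livers and between 393 and 770 TPM in FLOX livers. The sums of 8 cholangiocyte markers (181 to 639 TPM in HKO livers and 248 to 473 TPM in FLOX livers) and of 15 lymphocyte markers (34.6 to 55.2 TPM in HKO livers and 22.0 to 51.4 TPM in FLOX livers) also overlapped. FLOX liver 4 was the lowest FLOX liver in these 4 sums too. The other 3 FLOX livers lay within the HKO range in each, at 1970 to 2114 TPM for macrophage, 733 to 770 TPM for stellate, 264 to 473 TPM for cholangiocyte and 35.5 to 51.4 TPM for lymphocyte markers. No list had a marker at 0 in every library, and 0 of their tested genes passed. The 15 pericentral genes, markers of the zone where these P450 genes are mainly expressed, gave 0 past the threshold, 10 with a higher and 5 with a lower mean in HKO livers. The 10 periportal genes gave 0, 2 with a higher and 8 with a lower mean, and 15 acute phase genes, read because inflammation is known to lower P450 expression, gave 0, 10 with a higher and 5 with a lower mean. In such bulk samples, fewer cells of a type and less RNA per cell cannot be told apart, and the part of these shifts in the values of the Cyp genes was not tested.

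For each tested member, the genes of most similar profile were sought among 12615 genes, by the root mean square difference between standardized log2 levels over the 8 libraries (0 is an identical shape). The nearest to *Cyp3a11* was *Gclc*, at 0.152, followed by *Lzts3*, at 0.212. *Cyp2a4* was nearest to *Ube2g1* (0.208) and *Dynlt1a* (0.222), *Cyp2a5* to *Pole3* (0.205) and *Arsa* (0.254), and *Cyp2b9* to *Syt3* (0.262) and *Usp48* (0.270). *Nr1i2* was nearest to *Snhg12* (0.234) and *Fryl* (0.295), and *Nr1i3* to *Clk1* (0.252) and *Ggt5* (0.263). *Cyp3a13* was nearest to *Klhl7* (0.203) and *Ppm1m* (0.252), and *Cyp3a25* to *Ankrd16* (0.301) and *Acot3* (0.336). Within the set the closest pair was *Cyp2a4* and *Cyp3a11*, at 0.562, followed by *Nr1i3* and *Cyp2b9*, at 0.580. *Cyp2a5* was far from all other members, the nearest being *Cyp3a25*. With 8 libraries and so many genes, near profiles are found for any gene, and these are given as a description.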

How the data were processed

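RNA from 4 HKO and 4 FLOX liver samples was sequenced from stranded total RNA libraries, per the labels, and groups and numbers follow the sample titles. The values used are the TPM that the authors deposited for 55416 genes, rounded to 2 decimals. RSEM 1.3.3 and GRCh38.p13, a human build, stand in the submitters' processing notes, although the identifiers are mouse genes. Strand setting and annotation are not stated there. TPM holds no depth, so no counting interval is given.

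Symbols were found for 52083 identifiers. Levels were compared as log2(TPM + 1) in limma 3.58.1 under R 4.3.3 (lmFit, then eBayes with trend, no covariates), for the 12710 genes that reached 1 TPM in 4 or more libraries, at a Benjamini-Hochberg adjusted p of 0.05, and the fit was tested on simulated data. Members and gene lists were chosen with earlier results of these data known, and motifs after the promoters were seen. From the female-biased list 1 gene is not reported here. The genes named are the members, *Smpd3*, the sex chromosome genes, up to 4 genes of smallest p from each list described, any that passed, and the 2 nearest profiles of each member. *Cyp2c55*, *Gstm1*, *Sult1e1*, *Cyp4a12a*, *Cyp3a41a*, *Gm45225*, *Marco*, *Timd4* and the genes at 0 were named after their values were seen. Promoter windows are from RefSeq, and coding identity and shared words are from GENCODE M21 transcripts. In alternative fits the pseudocount was 0.1 or 5, the filter was dropped or set to a mean of 5 TPM, libraries were scaled by median of ratios, by quantiles or after removal of mitochondrially encoded genes and the top 20, eBayes was robust, libraries were weighted, replicate number was blocked on, or 1 library was left out.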

Additional observations from a re-analysis of the deposited data

Results flagged for a closer look

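In groups of 4 libraries, a value was singled out when its gap to the nearest other exceeded the share of the group's range given by Dixon's 95% critical value, which chance gives in about 1 in 20 groups. Of 88 groups from 44 genes, 7 were singled out, 3 of them for members. *Cyp2b9* stood at 64.1 TPM in HKO liver 3, against 27.4 to 29.7 TPM in the other HKO livers. HKO liver 4 was high for *Cyp2a4*, at 16.0 TPM against 9.09 to 9.66 TPM in the other HKO livers, and for *Cyp3a13*, at 39.6 TPM against 32.0 to 33.3 TPM. It was also high for *Nfil3*, at 37.0 TPM against 23.0 to 24.0 TPM, and for *Elovl3*, at 23.2 TPM against 16.4 to 17.0 TPM. *Ddx3y* was low in HKO liver 1, at 6.86 TPM against 10.9 to 11.4 TPM in the other HKO livers. *Cyp2a22* was high in FLOX liver 2, at 10.1 TPM against 4.11 to 5.01 TPM in the other FLOX livers.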

How the results depend on the processing

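No member passed under any of the 18 alternatives. The log2 difference of *Cyp3a11* stayed between 0.35 and 0.46 and that of *Cyp2a4* between 0.54 and 0.87, while that of *Cyp2b9* ran from 0.36 to 0.77. The signs of *Nr1i2*, *Nr1i3*, *Cyp2a4*, *Cyp2a5*, *Cyp2b9* and *Cyp3a11* held in all 18. *Cyp3a13* turned to -0.0045 under quantile normalization and ran from -0.0061 (without FLOX liver 4) to 0.13 with 1 library left out. *Cyp3a25* turned to -0.014 under median-of-ratios scaling, -0.016 under quantile normalization and -0.017 without FLOX liver 3, and ran from -0.034 (without HKO liver 3) to 0.084 with 1 library left out. The count of all genes past the threshold, 13, was 8 and 6 with pseudocounts of 0.1 and 5, 20 after rescaling without abundant genes or with library weights, and 0 without a filter in limma (1539 at an unadjusted p under 0.05). It was 0 to 16 with 1 library left out (0 without HKO liver 3 or FLOX liver 1, 2 without HKO liver 2, 3 without FLOX liver 4 and 5 without HKO liver 1). The cause was not tested. With the replicate number as a block it was 0 in limma (743 at an unadjusted p under 0.05; *Osgin1* had an adjusted p of 0.0803), and same-numbered libraries did not deviate together (correlations from -0.20 to 0.03 across genes), so the numbers were not taken as pairs. TPM keeps no depth, so the reliability of *Cyp2b10* and *Cyp2b13* at these levels is unknown.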
